A study of Rattus norvegicus with 30 samples.

Results

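Hippo signalling is a kinase pathway that limits organ and tissue growth, and 10 of its effector and target genes are described here. They are the co-activators Yap1 (ENSRNOG00000005933) and Wwtr1 (ENSRNOG00000016617, the gene of TAZ), the DNA-binding partners Tead1 (ENSRNOG00000015488) and Tead4 (ENSRNOG00000005608), the kinase Lats2 (ENSRNOG00000056343), and the targets Ccn1 (ENSRNOG00000014350), Ccn2 (ENSRNOG00000015036), Ankrd1 (ENSRNOG00000018598), Amotl2 (ENSRNOG00000008487) and Ajuba (ENSRNOG00000012791). The genes were taken by name from a table of 30562 rows, and all 10 were among the 16171 genes with enough counts to test. RNA was sequenced from CD31+ lung cells of wild-type rats, sorted with microbeads at 3 weeks after surgery, and CD31 is a surface protein of endothelial cells. Operations were either sham or Glenn surgery, which directs venous blood of the upper body into the pulmonary artery and so deprives the lung of blood from the liver. Each operation was combined with a vitamin A control, deficient or excess diet, which gave 6 groups of 5 libraries: sham and Glenn surgery on the control diet, sham and Glenn surgery on the deficient diet, and sham and Glenn surgery on the excess diet. The labels do not say whether the 5 libraries of a group came from separate animals, so p-values measure the spread between these libraries, which may in part be technical.

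In the pathway, the kinases MST1 and MST2 with SAV1 activate LATS1 and LATS2, which phosphorylate YAP and TAZ and keep them out of the nucleus. When the kinases are less active, for example in stretched or spread cells, YAP and TAZ enter the nucleus and bind TEAD proteins on DNA, since neither binds DNA itself. In endothelial cells YAP and TAZ act in vessel sprouting and in the response to flow. Lats2 and Amotl2 are known targets that also restrain YAP, so they are part of a feedback loop, and Ajuba codes for a LIM protein that binds and holds back LATS kinases. RNA-seq measures transcripts only, so neither phosphorylation nor the place of the proteins in the cell was measured.

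Promoter sequences show which of the genes carry the letters that TEAD proteins recognise close to the gene start. RefSeq's table for the build GRCr8 had a promoter of 300 bases (250 before to 50 after the start) for 6 of the 10 genes: Yap1, Wwtr1, Ccn1, Ccn2, Amotl2 and Ajuba. Tead1, Tead4, Lats2 and Ankrd1 had no entry. The letters GGAATG, searched on both strands, were in 5 of the 6 windows, and 14.2% of all 33469 promoters in the table hold them. The 250 bases before the start are printed for the 4 target genes, 5′ to 3′ along the gene, with GGAATG or its reverse complement in capitals.
Ccn1 (GRCr8 chr2:237225690-237225939, minus strand): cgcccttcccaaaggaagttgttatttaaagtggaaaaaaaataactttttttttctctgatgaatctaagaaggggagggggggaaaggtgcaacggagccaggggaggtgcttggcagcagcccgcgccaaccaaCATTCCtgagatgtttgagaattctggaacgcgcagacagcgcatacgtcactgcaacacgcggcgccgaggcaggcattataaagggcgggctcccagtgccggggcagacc
Ccn2 (GRCr8 chr1:22624615-22624864, minus strand): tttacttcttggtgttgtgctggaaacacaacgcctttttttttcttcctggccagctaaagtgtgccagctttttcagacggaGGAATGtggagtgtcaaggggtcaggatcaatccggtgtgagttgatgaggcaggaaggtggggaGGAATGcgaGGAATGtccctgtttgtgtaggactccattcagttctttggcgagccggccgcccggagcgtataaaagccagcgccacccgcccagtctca
Amotl2 (GRCr8 chr8:112182376-112182625, plus strand): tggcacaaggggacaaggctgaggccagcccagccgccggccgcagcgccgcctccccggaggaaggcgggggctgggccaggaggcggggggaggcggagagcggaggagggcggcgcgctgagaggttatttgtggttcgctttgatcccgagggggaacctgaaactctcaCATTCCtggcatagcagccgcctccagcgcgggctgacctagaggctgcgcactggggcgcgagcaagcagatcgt
Ajuba (GRCr8 chr15:32000043-32000292, minus strand): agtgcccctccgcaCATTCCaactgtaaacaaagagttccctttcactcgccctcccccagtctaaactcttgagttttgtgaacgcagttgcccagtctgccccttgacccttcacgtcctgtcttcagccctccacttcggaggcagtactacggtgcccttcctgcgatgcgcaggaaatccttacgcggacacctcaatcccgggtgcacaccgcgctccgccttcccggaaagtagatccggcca
Ccn2, which codes for the matricellular protein CTGF, had 3 copies, whose first bases lay at -166, -101 and -92 from the start. In the whole table, 0.0956% of promoters had 3 or more copies. Ccn1 had 1 copy at -113, Amotl2 1 at -76 and Ajuba 1 at -236, all 3 on the opposite strand to the gene. Yap1 had 1 copy at -116 on its own strand, and the Wwtr1 window had none. The AP-1 motif TGANTCA, which reads the same on both strands, is in 7.33% of all promoters, and the CArG box of serum response factor is in 1.64%. Neither was found in the 6 windows. A match describes letters in a window and was not tested as a binding site.

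**Figure D1:**
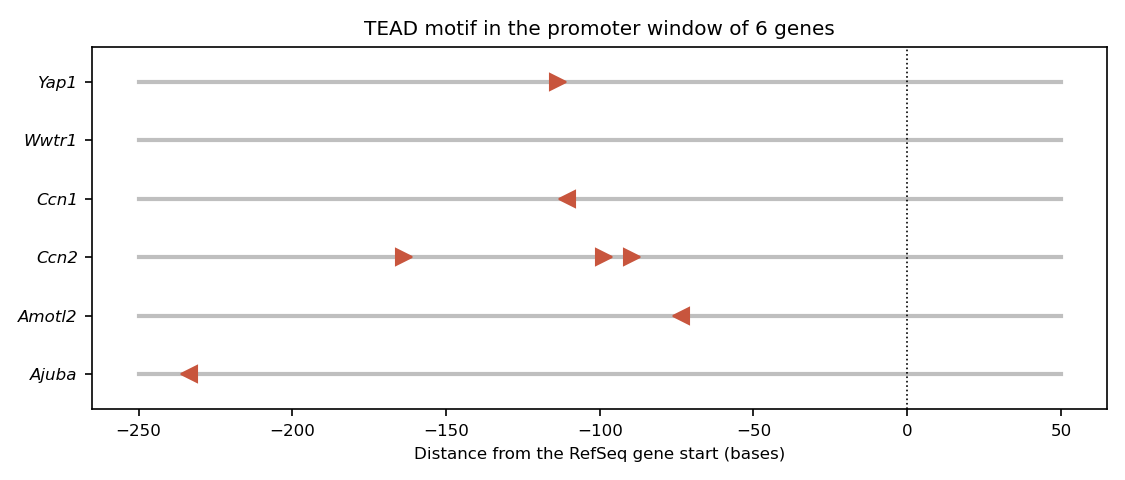
Place of the TEAD motif GGAATG in the promoter windows of 6 genes, in bases from the RefSeq gene start (dotted line); arrowheads point right where the motif is on the gene's own strand and left where it is on the other. Ccn2 carries 3 copies, 4 genes carry 1 and Wwtr1 carries none.

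Total estimated counts were 22 to 77.6 M per library (median 40 M). Endothelial genes (Pecam1, Cdh5, Tie1, Tek, Kdr and Erg) summed to 6184 to 8316 CPM after sham and 4815 to 6865 CPM after Glenn surgery, where CPM is counts scaled by TMM to a library total of 1 M. Averaged over diets, as are the counts below unless a diet is named, 2 of the 6 rose and 3 fell after Glenn surgery. Over all genes tested, 23.4% rose and 24.7% fell. Type 2 alveolar genes were more abundant still (26991 to 46906 and 19128 to 42789 CPM), and all 6 fell. Mural genes (Pdgfrb, Cspg4, Rgs5, Notch3, Acta2, Myh11, Cnn1 and Tagln) summed to 161 to 328 CPM after sham and 466 to 1687 CPM after Glenn surgery, and 8 of 8 rose. Fibroblast genes (319 to 806 and 586 to 1226 CPM) rose in 6 of 6, and type 1 alveolar genes (660 to 1099 and 793 to 2047 CPM) rose in 5 of 6 and fell in 1. On the control, deficient and excess diet alone, 0, 3 and 1 of the 6 fibroblast genes rose past the threshold. Of the 6 type 2 alveolar genes, 0, 6 and 2 fell past it, while 24.9%, 27.4% and 21.9% of all genes were called on these diets. All 4 lymphatic endothelial genes rose (558 to 1077 and 893 to 1496 CPM), 3 of 5 arterial genes rose and 2 fell (729 to 1042 and 631 to 1238 CPM), and 0 of 4 mesothelial genes changed (210 to 499 and 142 to 577 CPM). Leukocyte genes summed to 14.7 to 68.0 and 19.8 to 60.4 CPM, and of the 4 tested 1 rose (Csf1r, by 0.71 on the log2 scale) and 1 fell (Cd68, by 0.76), while Cd3e was near 0 (mean 0.17 and 0.10 CPM). Libraries also fell into levels of RT1-CE16, a class I MHC gene: 13 were above 100 CPM (RT1-CE16-high), among them 3 of 5 sham control-diet and 0 of 5 sham excess-diet libraries. In bulk RNA, fewer cells of a type and less RNA per cell cannot be told apart, and the part of these cell types in the results below was not tested.

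Glenn surgery changed 9 of the 10 genes when averaged over the diets, with 6 higher and 3 lower (edgeR quasi-likelihood test, Benjamini-Hochberg adjusted p under 0.05). The background was high: 48.2% of all 16171 genes passed the same threshold, 23.4% higher and 24.7% lower. Wwtr1, Ccn1, Ccn2, Ankrd1, Ajuba and Yap1 rose, whereas Lats2, Amotl2 and Tead4 fell. The median log2 change of the 10 genes was 0.40, against -0.01 over all genes tested. For 3 of the 10 genes (Wwtr1, Lats2 and Amotl2) all 15 Glenn libraries lay on one side of all 15 sham libraries, which held for 5.83% of all genes.

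**Figure D2:**
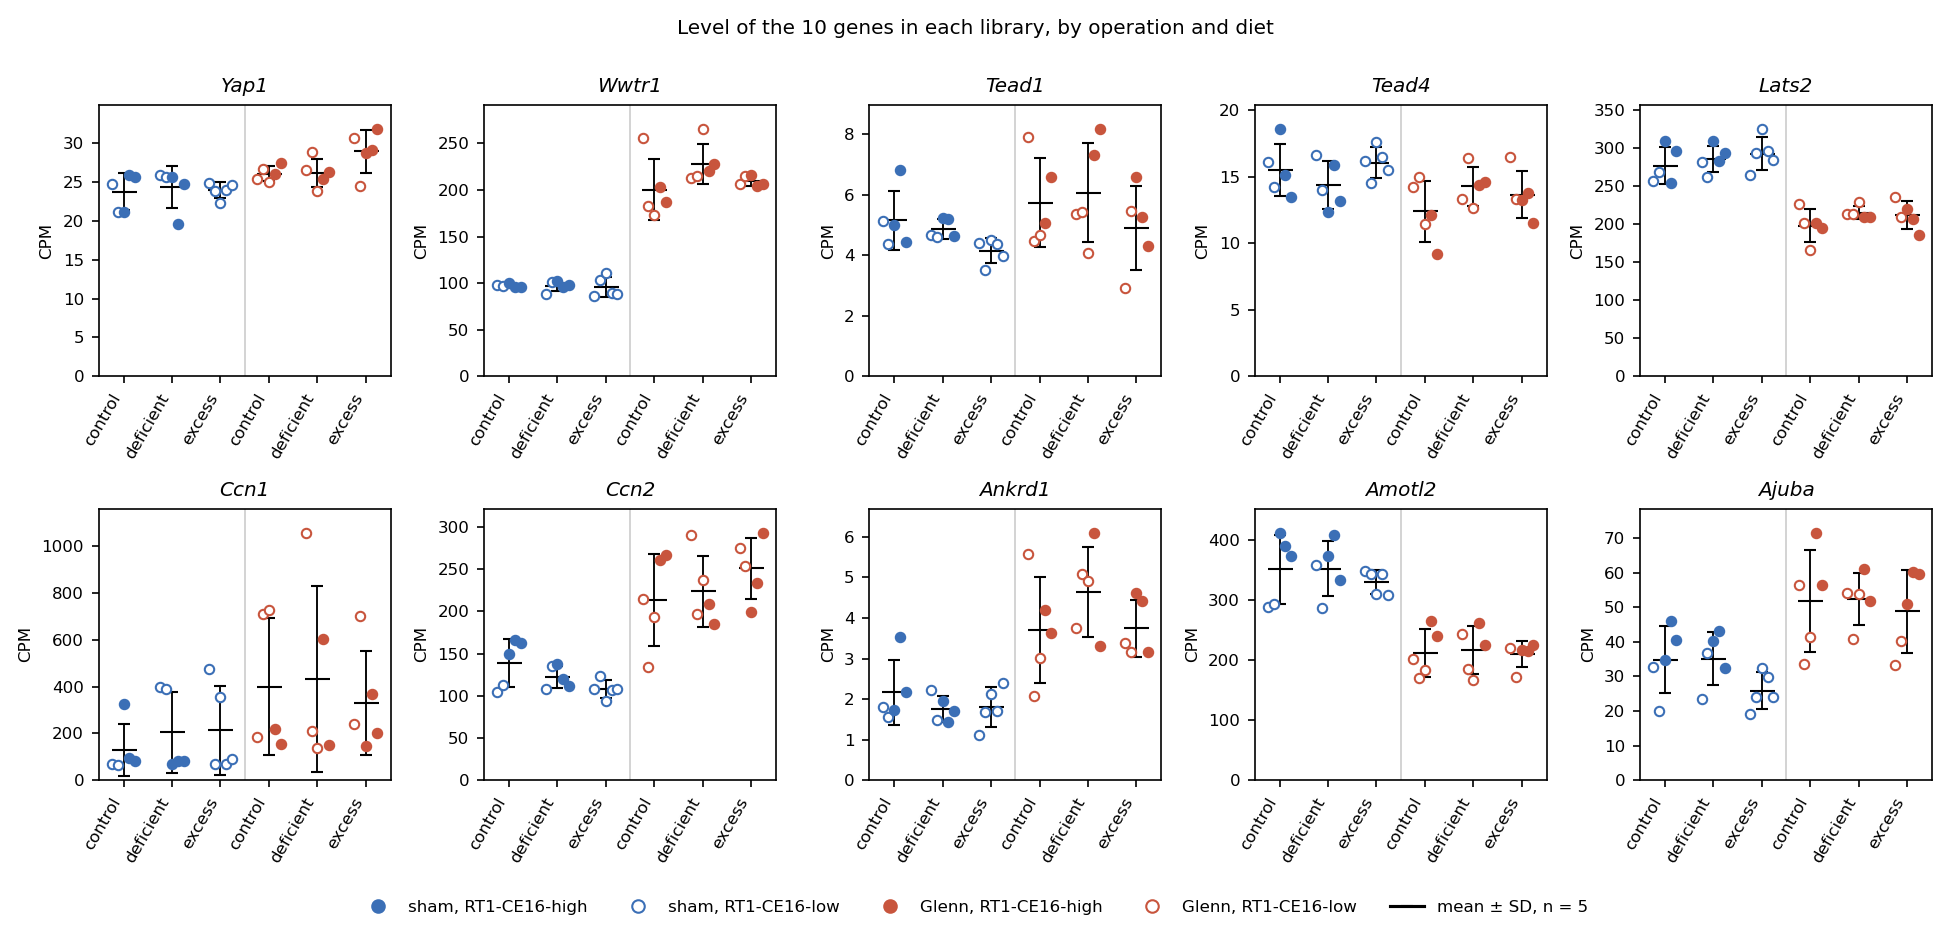
CPM (vertical axes, from 0) of the 10 genes in each of 30 libraries, by operation (sham in blue, Glenn in red) and diet; filled points are RT1-CE16-high libraries and black bars give the mean ± SD of 5. Wwtr1, Lats2 and Amotl2 separate completely by operation, and Ccn1 has the widest spread within groups.

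Of the co-activator genes, Wwtr1 was higher in every Glenn library than in every sham library. After sham surgery, Wwtr1 stood at 98.1, 97.4, 100.2, 95.6 and 96 CPM on the control diet, at 88.3, 101, 102, 95.9 and 97.9 CPM on the deficient diet and at 85.8, 104, 111, 89.7 and 88.2 CPM on the excess diet (replicates 1 to 5 in order). The Glenn libraries of the same diets gave 255, 183, 173, 203 and 187 CPM, 212, 215, 265, 220.4 and 228 CPM and 207, 215, 216, 204 and 206 CPM. Of all values, the lowest after Glenn surgery was 173 CPM and the highest after sham surgery 111 CPM. The means were 96.8 ± 6.76 and 213 ± 24.2 CPM (SD, n = 15 each), a 2.20-fold rise (log2 change 1.13, SE 0.05, edgeR adjusted p 3.86e-17). By diet the log2 change was 1.04, 1.23 and 1.13 on the control, deficient and excess diet (edgeR adjusted p 1.66e-10, 1.20e-11 and 4.65e-10).

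Yap1, which codes for the other co-activator, rose slightly. Its sham libraries ranged from 19.5 to 25.9 CPM (median 24.8) and its Glenn libraries from 23.8 to 31.8 CPM (median 26.5), so the groups overlapped. The means were 24 ± 2.01 and 27 ± 2.31 CPM (SD, n = 15 each), and the rise of 0.18 on the log2 scale (SE 0.05) passed the threshold (edgeR adjusted p 0.00355). Within single diets only the excess diet passed, with 23.9 ± 1.02 CPM in sham and 28.9 ± 2.77 CPM in Glenn libraries (mean ± SD, n = 5 each; a log2 change of 0.29, edgeR adjusted p 0.0231). On the control and deficient diets the changes were 0.14 and 0.10, and the test of a difference in the Yap1 change between diets gave an unadjusted p of 0.324 and an adjusted p of 0.999 in edgeR. The ratio of Wwtr1 to Yap1 counts, into which no scaling between libraries enters, was 3.41 to 5.01 in sham libraries (mean 4.07 ± 0.523, SD, n = 15) and 6.49 to 11.1 in Glenn libraries (mean 7.95 ± 1.33, SD, n = 15). The ranges did not overlap. The ratio is not a ratio of molecules, since transcript length was not taken into account.

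The TEAD genes, whose proteins bring YAP and TAZ to DNA, showed small differences. Tead1 ranged from 3.50 to 6.82 CPM in sham (median 4.61) and 2.91 to 8.16 CPM in Glenn libraries (median 5.38), a change of 0.17 on the log2 scale (SE 0.11) that missed the threshold (adjusted p 0.188 in edgeR). Its 95% interval was -0.05 to 0.39. The lowest Tead1 value of all 30 libraries, 2.91 CPM, was Glenn excess-diet replicate 1, and the highest, 8.16 CPM, was Glenn deficient-diet replicate 5. Tead4 ranged from 12.4 to 18.6 CPM in sham (median 15.5) and 9.19 to 16.5 CPM in Glenn libraries (median 13.3). It fell by 0.17 on the log2 scale (SE 0.07, edgeR adjusted p 0.0385), a call that was lost in 17 of 41 alternative analyses, 13 of them leaving out a single library. On the control diet Tead4 went from 15.5 ± 1.97 to 12.4 ± 2.32 CPM (mean ± SD, n = 5 each), a log2 change of -0.32 (edgeR adjusted p 0.0453). That call was lost in 11 of 23 alternatives (edgeR adjusted p up to 0.652), 6 of them leaving out a single library (up to 0.181). On the deficient and excess diets the changes were -0.03 and -0.17 and did not pass.

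Among other genes of TEAD complexes, 3 of 4 tested rose and 0 fell (all genes: 23.4% higher and 24.7% lower). Tead2 rose from 4.04 ± 0.798 to 6.82 ± 1.60 CPM (mean ± SD, n = 15 each; a log2 change of 0.75, edgeR adjusted p 1.76e-06). The TEAD cofactor genes Vgll3 and Vgll4 rose by 0.43 and 0.17 on the log2 scale. Tead3 stood at 11.6 ± 1.92 and 13.3 ± 2.92 CPM (SD, n = 15 each) and did not pass (edgeR adjusted p 0.160), and Vgll2 was below the count filter. The median log2 change of the 4 was 0.30.

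Lats2, the kinase that phosphorylates YAP and TAZ and is also their target, was lower in every Glenn library than in every sham library. After sham surgery, Lats2 stood at 257, 268, 309, 254 and 296 CPM on the control diet, at 282, 263, 309.8, 283 and 294 CPM on the deficient diet and at 265, 293, 325, 296 and 285 CPM on the excess diet (replicates 1 to 5 in order). Glenn libraries, in the same order of diets, gave 226, 201, 166, 202 and 195 CPM, 214, 213, 229.9, 209.9 and 209 CPM and 236, 209, 220.5, 206 and 186 CPM. The lowest sham value was 254 CPM and the highest Glenn value 236 CPM. Means were 285 ± 20.9 and 208 ± 17.6 CPM (SD, n = 15 each), so Lats2 fell by 0.45 on the log2 scale (SE 0.04, edgeR adjusted p 1.29e-09). By diet its change was -0.48, -0.42 and -0.45 on the control, deficient and excess diets (edgeR adjusted p 1.56e-05, 0.000142 and 0.000204). Lats1, the gene of the other LATS kinase, stood at 46.3 ± 4.52 and 43.9 ± 4.70 CPM (mean ± SD, n = 15 each; a log2 change of -0.09, edgeR adjusted p 0.178).

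Kinases and scaffolds upstream of YAP and TAZ moved in both directions. Of 25 tested, 6 rose, 6 fell and 13 did not pass, with a median log2 change of -0.09. The shares that rose and fell were near those of all genes (23.4% higher and 24.7% lower). Stk4, which codes for the kinase MST1, fell from 149 ± 22.1 to 88.8 ± 14 CPM (mean ± SD, n = 15 each; a log2 change of -0.76, edgeR adjusted p 9.54e-09). Its relative Stk3 (MST2) stood at 72.5 ± 4.36 and 75.9 ± 6.76 CPM (mean ± SD, n = 15 each; a log2 change of 0.07, edgeR adjusted p 0.130). Map4k4, a kinase that acts on LATS beside MST1 and MST2, rose from 46.6 ± 4.59 to 73.9 ± 11.3 CPM (mean ± SD, n = 15 each; a log2 change of 0.66, edgeR adjusted p 6.30e-10). Smaller rises were those of Sav1, the scaffold of MST kinases, by 0.18 and Limd1 by 0.19 on the log2 scale. Mob1a, which activates LATS kinases, fell by 0.16.

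Ccn2 rose on every diet. After sham surgery, Ccn2 stood at 104, 113, 149, 166 and 162 CPM on the control diet, at 108, 135, 138, 119.6 and 112 CPM on the deficient diet and at 108, 124, 93.9, 106 and 108 CPM on the excess diet (replicates 1 to 5 in order). On the same diets, Glenn libraries gave 215, 134, 193, 260.4 and 266 CPM, 291, 196, 238, 209 and 185 CPM and 275, 254, 199.7, 234 and 293 CPM. Glenn control-diet replicate 2 (134 CPM) was the Glenn library furthest down, inside the sham range of 93.9 to 166 CPM, and the other 14 Glenn libraries were at 185 CPM or more. Means were 123 ± 22.1 and 229.5 ± 44.6 CPM (SD, n = 15 each), a 1.89-fold rise (log2 change 0.92, SE 0.09, edgeR adjusted p 2.14e-09). The log2 change was 0.62 for the control, 0.84 for the deficient and 1.30 for the excess diet (edgeR adjusted p 0.00349, 0.000201 and 1.94e-06). Of the 10 genes, Ccn2 had the smallest p in the test of a difference in the Glenn change between diets, with an unadjusted p of 0.0242 that did not pass over all genes (edgeR adjusted p 0.791). The excess-diet change exceeded the control-diet change by 0.68 on the log2 scale (95% interval 0.20 to 1.16, edgeR adjusted p 0.405). The groups of these diets differed in RT1-CE16 level, and its part in the difference was not tested: the 3 sham control-diet libraries at the high level had 149 to 166 CPM and the 2 at the low level 104 and 113 CPM, while no sham excess-diet library was at the high level.

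Ccn1, which codes for the matricellular protein CYR61, had by far the widest spread and, averaged over diets, the largest rise in the main fit. Across the 11 alternatives beyond single-library omissions, the rise was 1.02 to 1.60 on the log2 scale, against 1.11 to 1.17 for Wwtr1. After sham surgery, Ccn1 stood at 71.4, 64.2, 325, 95.5 and 81.8 CPM on the control diet, at 397, 391, 69.8, 83.9 and 81.4 CPM on the deficient diet and at 476, 69.9, 356, 71.2 and 89.8 CPM on the excess diet (replicates 1 to 5 in order). Its Glenn libraries on these diets gave 185, 708, 728, 219.9 and 153 CPM, 1054, 211, 136, 605 and 152 CPM and 238, 701, 145, 368 and 202 CPM. Sham libraries formed 2 levels: 10 lay between 64.2 and 95.5 CPM and 5 between 325 and 476 CPM, with no library in between. The 5 were control-diet replicate 3, deficient-diet replicates 1 and 2, and excess-diet replicates 1 and 3, so both levels occurred on every diet. The step between them was 3.41-fold, or 61.2% of the sham range on the log scale. Neighbouring Glenn libraries were at most 1.64-fold apart over a range of 136 to 1054 CPM. In the other 9 genes the largest step between neighbouring libraries of 1 operation was 1.05-fold to 1.47-fold.

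The mean of Ccn1 was 182 ± 155 CPM over the sham and 387 ± 293 CPM over the Glenn libraries (mean ± SD, n = 15 each). Its fitted change, with the library series in the model, was 1.39 on the log2 scale (SE 0.43, adjusted p 0.00996 in edgeR). The means are not adjusted for the series. All 15 Glenn libraries were above the 10 lower sham libraries, and 10 of the 15 were below the highest sham library. Changes on the single diets were 1.65, 1.24 and 1.28, none past the threshold (edgeR adjusted p 0.0976, 0.212 and 0.269). Single libraries moved these values: without sham control-diet replicate 3 the control-diet change was 2.37 and passed (edgeR adjusted p 0.0268), and without Glenn control-diet replicate 3 it was 1.31 (0.225). On the deficient diet it was 0.62 without Glenn deficient-diet replicate 4 (edgeR adjusted p 0.594). The lowest values of any alternative were 0.16 on the control diet (RT1-CE16-high libraries only), 0.25 on the deficient diet (RT1-CE16-low libraries only) and 0.64 on the excess diet (no series term). The averaged call was lost in series A libraries only (22 libraries with lower library numbers) and in RT1-CE16-low libraries only (edgeR adjusted p up to 0.165).

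Ccn1 is also known as an immediate early gene, a class switched on within minutes by growth factors, stretch or tissue handling, so its level was set beside theirs. The 11 immediate early genes tested took 1.71% to 2.62% of all counts in a library. Their sum was 17104 to 24387 CPM in sham and 19577 to 26195 CPM in Glenn libraries. After the mean of each group was subtracted from log2(CPM + 1), Pearson's r with Ccn1 over the 30 libraries was -0.48 (Nr4a1) to 0.26 (Junb). Of the 5 sham libraries at the upper Ccn1 level, control-diet replicate 3 had the lowest immediate early sum of all 30 libraries (17104 CPM) and excess-diet replicate 1, with the highest sham Ccn1, the highest sum of the sham libraries (24387 CPM). The 8 genes on either side of Ccn1 on its chromosome had r of -0.14 to 0.55 with it. The genes most like Ccn1 by the same measure, of 12720 compared, were Sirt7 (r = 0.66), Fbxo7 (0.64) and Shfl (0.62). These r describe libraries that share their preparation and carry no p. The cause of the 2 Ccn1 levels among sham libraries was not tested. After Glenn surgery 6 of the 11 immediate early genes rose and 3 fell, against 23.4% higher and 24.7% lower over all genes. Fos rose by 0.50, Egr2 by 0.58 and Zfp36 by 0.27 on the log2 scale, while Jun fell by 0.27, Ier2 by 0.25 and Ier3 by 0.23 (edgeR adjusted p from 9.52e-09 to 0.0180).

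**Figure D3:**
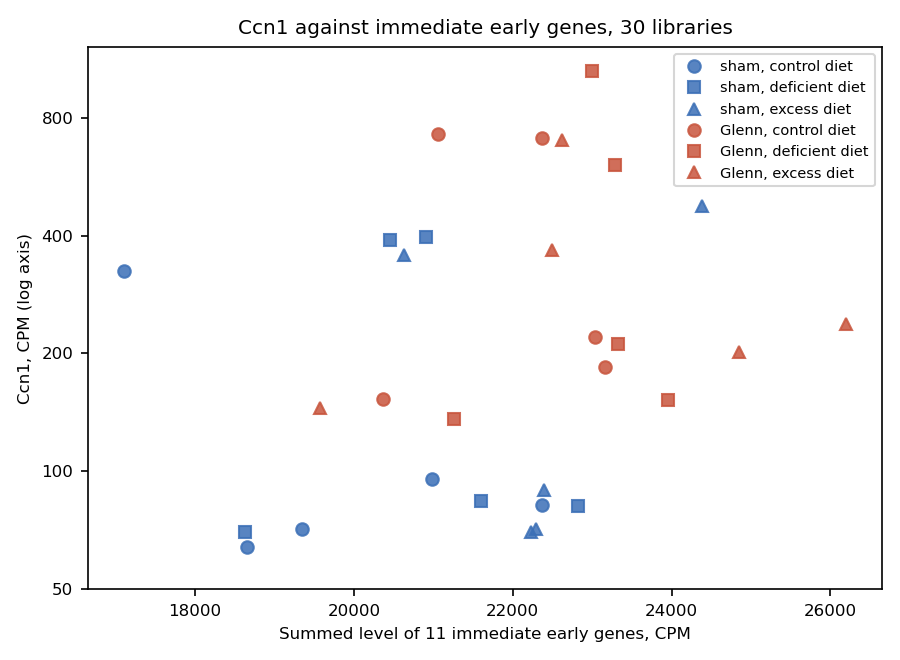
Ccn1 (CPM, log axis) against the summed CPM of 11 immediate early genes in each of 30 libraries, with colours for the operation and shapes for the diet. Sham libraries lie at 64.2 to 95.5 or 325 to 476 CPM of Ccn1, over much the same range of immediate early sums.

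Of the 4 other CCN genes tested, 2 rose and 0 fell (all genes: 23.4% higher and 24.7% lower), so the share called was near that of all genes (48.2%). Ccn3 rose from 37.5 ± 11.5 to 89.3 ± 23.4 CPM (mean ± SD, n = 15 each; a log2 change of 1.22, edgeR adjusted p 2.10e-10). Ccn4 was low and rose from 0.83 ± 0.320 to 1.49 ± 0.662 CPM (mean ± SD, n = 15 each; a log2 change of 0.75, edgeR adjusted p 0.00640). Ccn5 and Ccn6 had changes of 0.39 and 0.11 and did not pass.

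Ankrd1, which codes for a stretch-responsive ankyrin repeat protein of muscle and vessels, was the least abundant of the 10 genes in counts. After sham surgery, Ankrd1 stood at 1.82, 1.55, 1.74, 3.52 and 2.19 CPM on the control diet, at 2.22, 1.49, 1.95, 1.44 and 1.71 CPM on the deficient diet and at 1.12, 1.68, 2.13, 1.70 and 2.40 CPM on the excess diet (replicates 1 to 5 in order). After Glenn surgery, the same diets gave 5.58, 2.09, 3.02, 4.19 and 3.64 CPM, 3.76, 5.09, 4.92, 6.09 and 3.30 CPM and 3.39, 3.16, 4.61, 4.41 and 3.17 CPM. The highest sham value (3.52 CPM, control-diet replicate 4) exceeded 6 of the 15 Glenn values. Means were 1.91 ± 0.559 and 4.03 ± 1.09 CPM (SD, n = 15 each), a 2.09-fold rise (log2 change 1.06, SE 0.15, edgeR adjusted p 9.53e-07). The change was 0.77, 1.41 and 1.01 on the control, deficient and excess diet (edgeR adjusted p 0.0246, 0.000131 and 0.0108). Its relative Ankrd23 had a change of -0.08 (edgeR adjusted p 0.818), and Ankrd2 was below the count filter.

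Amotl2, a gene of the angiomotin family whose product holds YAP at cell junctions, fell on every diet, as Lats2 did. After sham surgery, Amotl2 stood at 287, 292, 410.5, 389 and 373 CPM on the control diet, at 358, 286, 372, 408 and 333 CPM on the deficient diet and at 348, 342, 309, 343 and 307 CPM on the excess diet (replicates 1 to 5 in order). The corresponding Glenn libraries gave 202, 169, 184, 265 and 239.9 CPM, 244, 185, 167, 261 and 224 CPM and 220.2, 172, 217, 214 and 225 CPM. No Glenn library reached the lowest sham library (265 against 286 CPM). Means were 344 ± 41.8 and 213 ± 32.1 CPM (SD, n = 15 each), and Amotl2 fell by 0.72 on the log2 scale (SE 0.07, edgeR adjusted p 8.69e-10). Its change was -0.73, -0.66 and -0.78 on the control, deficient and excess diets (edgeR adjusted p 2.80e-05, 0.000109 and 5.88e-05). Its relatives Amot and Amotl1 had changes of 0.12 and 0.14 (edgeR adjusted p 0.321 and 0.115).

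Ajuba, the LIM gene whose product holds back LATS kinases, rose after Glenn surgery. After sham surgery, Ajuba stood at 32.9, 20.1, 34.6, 46 and 40.6 CPM on the control diet, at 23.6, 36.8, 40.1, 43 and 32.4 CPM on the deficient diet and at 19.3, 24.1, 32.4, 29.9 and 24 CPM on the excess diet (replicates 1 to 5 in order). In the Glenn groups, the same diets gave 56.3, 33.6, 41.4, 71.4 and 56.4 CPM, 54.2, 40.7, 53.8, 61.2 and 51.9 CPM and 33.3, 40.2, 50.9, 60.2 and 59.7 CPM. The ranges overlapped, with sham values of 19.3 to 46 CPM and Glenn values of 33.3 to 71.4 CPM. Means were 32 ± 8.43 and 51 ± 11 CPM (SD, n = 15 each), a 1.55-fold rise (log2 change 0.63, SE 0.11, edgeR adjusted p 4.95e-05). On the single diets the change was 0.57, 0.66 and 0.65 (edgeR adjusted p 0.0307, 0.0133 and 0.0333). Of 5 other LIM genes 4 rose and 0 fell (all genes: 23.4% higher and 24.7% lower): Zyx (zyxin) by 0.71, Trip6 by 0.66, Wtip by 0.20 and Limd1 by 0.19 on the log2 scale (edgeR adjusted p from 1.11e-09 to 0.0420).

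**Figure D4:**
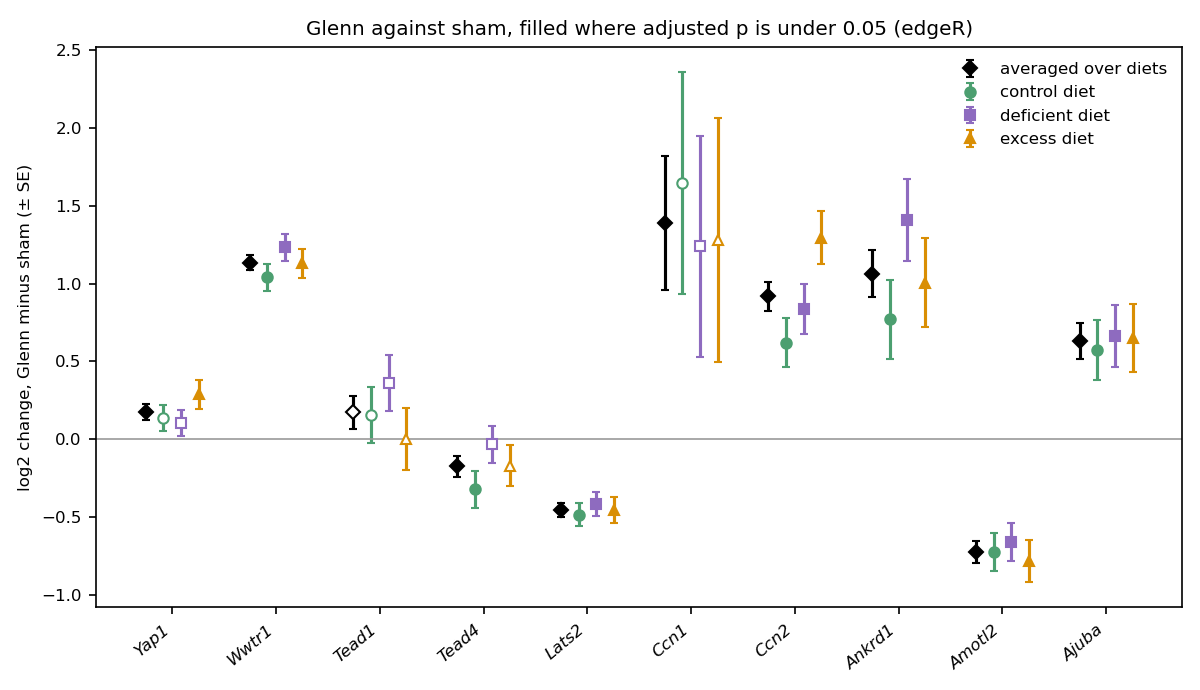
Fitted log2 change from sham to Glenn surgery (vertical axis, ± SE) of the 10 genes, averaged over diets (diamonds) and on each diet; filled symbols have an edgeR adjusted p under 0.05. Wwtr1, Ccn2, Ankrd1 and Ajuba are above 0 and Lats2 and Amotl2 below 0 on all 3 diets with filled symbols, while Ccn1 has the widest error bars.

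Each diet taken alone gave fewer calls. On the control diet 7 of the 10 genes changed (24.9% of all genes), 6 changed with the deficient diet (27.4%) and 7 with the excess diet (21.9%), by edgeR. In the control-diet comparison limma voom called 6, and without sham control-diet replicate 1 edgeR called 4. The same 6 genes were called on every diet, for which no share of all genes was counted. Wwtr1, Ccn2, Ankrd1 and Ajuba were higher, and Lats2 and Amotl2 lower. Tead4 was added on the control diet and Yap1 on the excess diet. Of these, Ajuba lost its call in 10 of 23 alternatives on the control, 3 of 23 on the deficient and 10 of 22 on the excess diet. Ankrd1 lost it in 9 of 23 on the control and 3 of 22 on the excess diet, Yap1 in 7 of 22 on the excess diet, and Lats2 on the deficient diet in series A only and in RT1-CE16-low libraries only (edgeR adjusted p up to 0.0792). Wwtr1, Ccn2 and Amotl2 kept their calls on all 3 diets in every alternative that gave a value. Complete separation of the 5 Glenn from the 5 sham libraries held for 3 of the 10 genes on the control diet (17.2% of all genes), 5 with the deficient (19.6%) and 6 with the excess diet (16.3%). On the excess diet 3 of 5 Glenn and 0 of 5 sham libraries were RT1-CE16-high, and these 3 were also of series B. The part of that makeup in the excess-diet changes was not tested.

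None of the 10 genes passed a test of diet. The excess diet was not tested against the deficient diet within an operation. In edgeR, 0 of 10 passed for the excess against the control diet after sham (0.241% of all genes), the deficient against the control diet after sham (0%), the excess against the control diet after Glenn (1.47%) and the deficient against the control diet after Glenn surgery (0.00618%). DESeq2 and limma voom also called 0 in each. At an unadjusted p under 0.05, edgeR gave 2 genes for the first of these, Ccn2 (-0.36) and Ajuba (-0.43), 0 for the second, Tead1 for the third (-0.46) and Wwtr1 for the fourth (0.19). The widest 95% interval outside Ccn1 was that of Ankrd1 for the deficient diet after sham, -0.93 to 0.25 on the log2 scale, and the narrowest among all 4 comparisons was that of Lats2 for the excess diet after sham, -0.08 to 0.24. A difference between diets in the Glenn change passed for 0 of the 10 genes and for 0.00618% of all genes, with Ccn2 at an unadjusted p under 0.05 in edgeR. Sham excess-diet libraries were all RT1-CE16-low and of series A, so these diet comparisons also differ in the makeup of the groups, and its part was not tested.

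Ordered by mean level over the 6 groups, all 3 Glenn groups came first for Yap1, Wwtr1, Ccn1, Ccn2, Ankrd1 and Ajuba and last for Tead4, Lats2 and Amotl2. Tead1 alone mixed the operations, with the Glenn excess-diet group below the sham control-diet group. For Wwtr1, Lats2 and Amotl2 the neighbouring groups across the change of operation did not overlap. Within an operation, neighbouring groups differed by more than 1 SD in only 3 cases: Yap1 between Glenn excess and Glenn deficient diet (28.9 ± 2.77 and 26.1 ± 1.82 CPM), and Tead1 (4.87 ± 0.321 and 4.15 ± 0.414 CPM) and Ccn2 (122 ± 13.6 and 108 ± 10.5 CPM) between sham deficient and sham excess diet (SD, n = 5 each). Neighbours in the order of Tead4 and Ccn1 lay within 1 SD of each other throughout. No share of all genes was counted for these orders or for differences between neighbours.

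Other genes of published YAP and TAZ target sets rose more often than they fell. Of 17 tested, 8 rose, 2 fell and 7 did not pass (background 23.4% higher and 24.7% lower), and the median log2 change was 0.21. Igfbp3, a binding protein of insulin-like growth factors, stood far apart: it rose from 10.8 ± 5.46 to 483 ± 250.1 CPM (mean ± SD, n = 15 each; a log2 change of 5.41, edgeR adjusted p 1.76e-13). Its change was 5.28, 5.54 and 5.40 on the control, deficient and excess diets. Axl, a receptor tyrosine kinase, rose from 19.1 ± 4.31 to 41.3 ± 15 CPM (mean ± SD, n = 15 each; a log2 change of 1.10, edgeR adjusted p 2.05e-07). Fjx1 rose by 1.09 on the log2 scale from a low level (5.61 ± 0.768 to 11.8 ± 2.86 CPM, SD, n = 15 each). Crim1 fell by 0.31 and Rbms3 by 0.19 on the log2 scale. The letters GGAATG were in the promoter windows of 2 of the 12 genes of this list that had one, near the 14.2% of all promoters.

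Genes of the actin response, driven by serum response factor and often active together with YAP and TAZ, also mostly rose. Of 11 tested, 8 rose and 2 fell (all genes: 23.4% higher and 24.7% lower), and the median log2 change was 1.06. Flna (filamin A) rose from 216 ± 26.6 to 452 ± 109.5 CPM (mean ± SD, n = 15 each; a log2 change of 1.06, edgeR adjusted p 6.89e-11). Tagln rose by 1.93 and Cnn1 by 2.21 on the log2 scale, both of which, with Acta2, are also among the 8 mural marker genes that rose. Vcl (vinculin) fell by 0.30 and Mrtfb, a co-activator of serum response factor, fell by 0.32. Actb had no row under that name. Endothelial, mural and fibroblast cells can all express Ccn1, Ccn2, Wwtr1 and actin genes, and their levels by cell type were not measured. The mural, fibroblast and type 1 alveolar sums given above had higher medians after Glenn surgery, and the endothelial and type 2 alveolar sums lower ones. The part of these cell types in the changes was not tested.

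**Figure D5:**
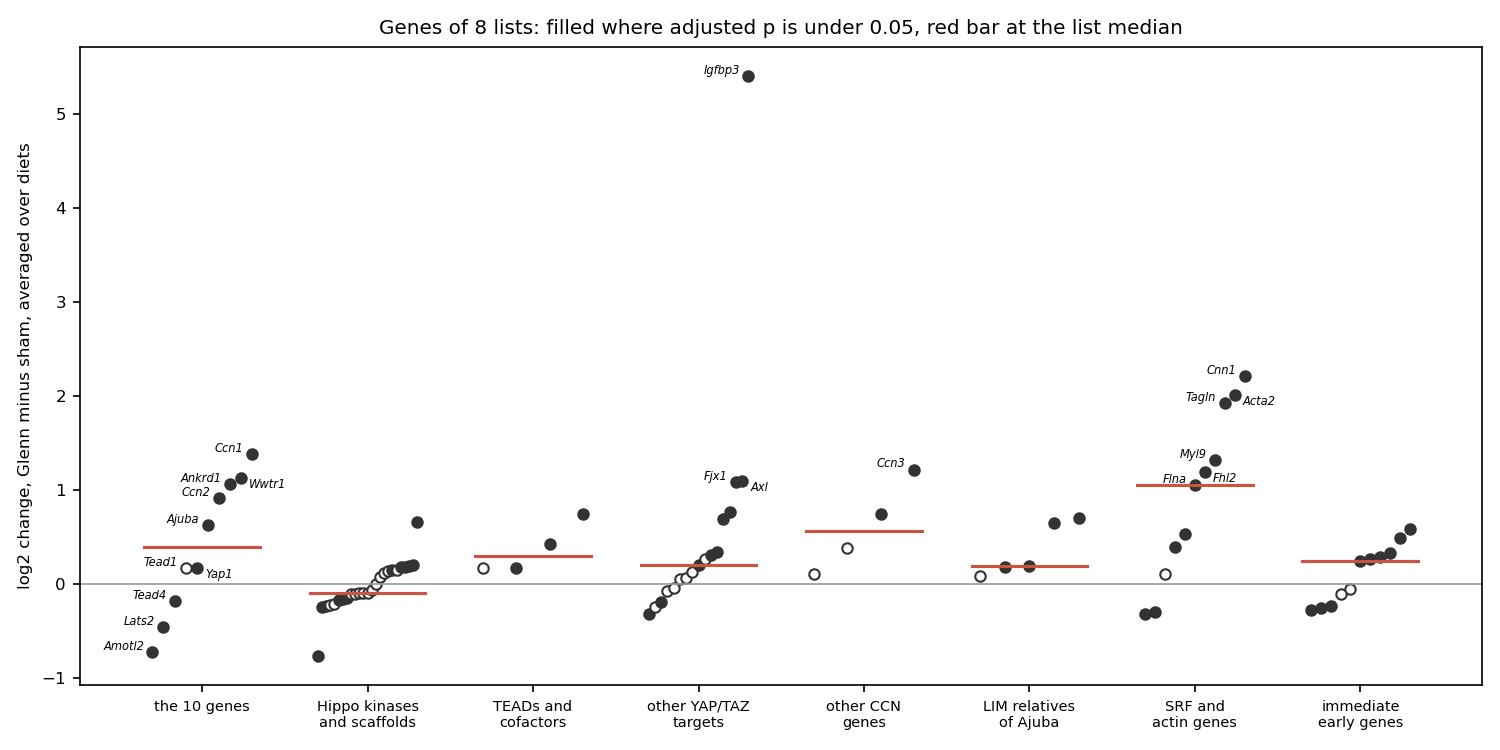
Log2 change from sham to Glenn surgery, averaged over diets (vertical axis), of the 10 genes and of 7 lists of related genes; filled points have an edgeR adjusted p under 0.05 and red bars are list medians. Igfbp3 stands at 5.41, the actin-response list has a median of 1.06, and Hippo kinases and scaffolds lie on both sides of 0.

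Part of the spread within groups followed the RT1-CE16 level, a comparison chosen after seeing the data. With the 6 groups in the fit, 2 of the 10 genes differed between RT1-CE16-high and low libraries, against 6.53% of all genes. Ajuba was higher at the high level by 0.47 on the log2 scale (SE 0.10, edgeR adjusted p 0.00620), with 27 ± 6.17 and 39.5 ± 5.11 CPM in 9 low and 6 high sham libraries and 44.2 ± 9.32 and 58.8 ± 6.86 CPM in 8 low and 7 high Glenn libraries (mean ± SD). Amotl2 was higher by 0.31 (SE 0.06, edgeR adjusted p 0.00162), and Glenn surgery moved these genes in opposite directions. With the library series added, 169 of all 16171 genes were called, against 1056 before. Amotl2 kept its call (0.44, edgeR adjusted p 0.0142) and Ccn2 gained one (0.55, edgeR adjusted p 0.0188, from 0.14 before). Ajuba missed it (0.58, edgeR adjusted p 0.0838). Within groups of the other diets, level and series coincided or did not vary. The levels in this fit are thus compared on the control diet alone. Mean Ccn2 at the high and low level was 263 and 181 CPM in Glenn control-diet libraries. It was 197 and 242 CPM in Glenn deficient-diet and 242 and 264 CPM in Glenn excess-diet libraries. In the fit without the series, Wwtr1 (-0.01, SE 0.05) and Lats2 (0.01, SE 0.05) showed no difference between the levels past the threshold. Where the RT1-CE16 level replaced the series in the model, all 9 genes called averaged over diets kept their Glenn calls.

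Genes whose level varied most like each of the 10 within groups were named by Pearson's r over 30 libraries after group means were subtracted, as a description without a test. For Wwtr1 they were Ireb2 (0.80), Smc5 (0.76) and Usp6nl (0.76), and for Yap1 Mapk13 (0.66), Cyp1a1 (0.64) and Bmp4 (0.64). Tead1 was followed by Aptx (0.74), Frmd6 (0.74) and Anxa4 (0.73), of which Frmd6 is itself a Hippo scaffold gene, and Tead4 by Smurf2 (0.80), Prex1 (0.77) and Adgrl2 (0.76). The nearest to Lats2 were Csnk1a1 (0.86), Ube3c (0.85) and Ctnnd1 (0.81), the first being a casein kinase gene and the last p120 catenin. Ccn2 had Pkml1 (0.67), Zfp874b (0.66) and Dcakd (0.65), Ankrd1 had Tmtc2 (0.75), Nedd9 (0.73) and Pitpnm3 (0.72), Amotl2 had Bet1l (0.76), Cdc73 (0.76) and Isoc2b (0.75), and Ajuba had Pdk3 (0.86), Vnn1 (0.84) and Ttc22 (0.84). None of the 10 genes was among the 3 nearest of another.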

How the data were processed

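The authors deposited a gene table of estimated counts for 30 libraries, with 6 groups of 5 taken from the sample titles. FastQC, Trim Galore, Picard, STAR and Salmon and the builds mRatBN7.2 and rn7 are named in the submitters' processing notes, and the authors' versions, annotation release and strand setting are not given in the sources used here. A PureLink kit for the RNA and a SMART-Seq low-input kit for the libraries were used, per the labels' protocols. Of the values, 13.6% were not whole, and they were rounded. All columns were used (0 left out), and no 2 libraries of a group agreed within sampling noise (lowest chi-square per degree of freedom 17.4).

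Genes were filtered by filterByExpr (minimum count 10, minimum total 15), scaled by TMM and fitted with edgeR 4.0.16 (quasi-likelihood, robust, R 4.3.3) over all 30 libraries. The fit held the 6 group means and the library series, A (22 libraries) or B (8), from the number ranges of the library names. P-values were adjusted by Benjamini-Hochberg over 16171 genes, 0.05 being the threshold. Standard errors are the log2 change over the root of F, and 95% intervals use 23 degrees of freedom. On simulated data with 200 genes changed 2-fold among 16171 in the averaged Glenn comparison, edgeR recovered 167 with 7 false calls, limma voom (limma 3.58.1) 169 with 6, and DESeq2 1.42.0 170 with 24. The simulation held no diet or series differences and far fewer changed genes than the 48.2% called in the data. These counts therefore need not carry over to the data.

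The 10 genes, the 8 lists of related genes, the 9 marker lists and the tests were chosen with earlier results of these data known. From each list the text names up to 3 risen and 3 fallen genes with the smallest adjusted p that average 1 CPM or more, and lists are described by counts and medians. Values of 1 gene that the rule names are not reported here. Members of a list outside that rule (Lats1, Stk3, Tead3, Ccn5, Ccn6, Amot, Amotl1, Ankrd23 and Wtip) were named after their values were seen, as the nearest relatives of a gene described. Likeness used log2(CPM + 1) with group means subtracted, over genes averaging 1 CPM or more. Promoters are RefSeq's for GRCr8. That build differs from the authors', so no coordinates of the counted genes are given.

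Alternatives were no series term, the RT1-CE16 level (high above 100 CPM) alone or with sex (male above 10 CPM of Ddx3y) as terms, series A only, each RT1-CE16 level only, DESeq2 size factors, DESeq2, no count filter, limma voom weighted by library quality, a fit of the compared groups alone, a block for the replicate number, and omission of each library in turn. Leaving out the first Glenn library of each diet together and the RT1-CE16 comparison were added after seeing the data.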

Additional observations from a re-analysis of the deposited data

Results flagged for a closer look

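In 4 of the 60 sets formed by the 10 genes and 6 groups, 1 library lay apart from the other 4 by more than Dixon's critical value for 5 samples, and chance alone gives about 3 of 60. Ccn1 in sham control-diet replicate 3 was 325 CPM against 64.2 to 95.5 CPM in the others, with a gap of 0.88 of the group's range. Yap1 in sham deficient-diet replicate 4 was 19.5 CPM against 24.8 to 25.9 CPM (0.827). Amotl2 in Glenn excess-diet replicate 2 was 172 CPM against 214 to 225 CPM (0.8). Lats2 in Glenn deficient-diet replicate 3 was 229.9 CPM against 209 to 214 CPM (0.76).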

How the results depend on the processing

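Averaged over diets, Wwtr1, Lats2, Ccn2, Ankrd1, Amotl2 and Ajuba kept their direction and call in all 41 alternatives. The number of the 10 genes called ranged from 6 to 9 (8 or 9 without a single library). Yap1 (edgeR adjusted p 0.118) and Ccn1 (0.165) lost their call in series A only and in RT1-CE16-low libraries only. Tead4 lost its call in those, with DESeq2 size factors, without the count filter, and without any one of sham control replicates 1 and 3, Glenn control 3, 4 and 5, sham deficient 1 and 4, Glenn deficient 1 and 3, sham excess 3 and 4, and Glenn excess 2 and 5 (adjusted p up to 0.0816 without a single library, edgeR).

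On the control diet 4 genes were called in RT1-CE16-low libraries only and 4 in a fit of the groups compared, and 4 to 7 without a single library, the 4 arising without sham control replicate 1. On the excess diet 4 were called in series A only, 4 in RT1-CE16-low libraries only and 4 in a fit of the groups compared. All these fits hold fewer libraries. The Ankrd1 control-diet call was lost without sham control replicate 1, 2 or 3 or Glenn control replicate 1 (edgeR adjusted p up to 0.108), and that of Yap1 on the excess diet without sham excess replicate 3 or Glenn excess replicate 1 (up to 0.0884). Ajuba's call on single diets was lost without any one of 5 control-diet and 6 excess-diet libraries, and without sham deficient replicate 1 on the deficient diet (0.0572). These were sham control 1 and 2, Glenn control 1, 4 and 5, sham excess 1, 2 and 5, and Glenn excess 2, 4 and 5.

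Small changes that were not called turned sign. Tead4 on the deficient diet was 0.068 in RT1-CE16-high libraries only, 0.0048 without the first Glenn libraries together, and -0.074 to 0.018 without a single library. Tead1 on the excess diet was -0.0070 with the replicate block and -0.21 to 0.17 without a single library. The cause was not tested. Of 1090 log2 changes recomputed, 1001 kept direction and side of the threshold, 76 lost and 2 gained a call, and 11 turned sign. No alternative called a gene for a diet or for a difference between diets. With the replicate block 9 of 10 genes were called averaged over diets, as without it. The labels do not say that a number pairs libraries, and not every same-numbered pair correlated above 0.1, so the libraries were treated as sharing only a number. Same-numbered libraries did correlate more often: 38 of 75 pairs were above 0.1 (-0.25 to 0.29, median 0.10) against 52 of 300 differently numbered pairs (median -0.02). Of 30 libraries, 15 matched best with their own number, a hint from the data and not from the design. All libraries numbered 1 were male and all numbered 2 female, both RT1-CE16-low, and series B libraries all had numbers 3 to 5. The part of sex, RT1-CE16 level and series in these correlations was not tested. RT1-CE16-high libraries alone gave no value for Glenn against sham surgery averaged over diets or on the excess diet, since no sham excess-diet library was high.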
